A study of Mus musculus with 18 samples.

Results

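Oncofetal genes are switched on in the fetal liver, fall silent in the adult organ and are often active again in hepatocellular carcinoma, where their proteins serve as blood or tissue markers. The 10 markers described here were found by symbol in a table of 58126 genes from mouse liver: the secreted or surface markers Afp, Gpc3, Tff3 and Golm1, the small membrane-anchored antigens Ly6d and Cd24a, the progenitor markers Prom1 and Sox4, and the fetal RNA-binding proteins Lin28b and Igf2bp3. They were picked by gene name, from a list drawn up with earlier results of these data known. Of the 10, 8 reached 1 TPM (a level corrected for gene length and scaled to a fixed library total) in at least 3 of the 18 libraries and could be tested. Lin28b and Igf2bp3 did not.

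Tissue came from 5 groups of mice. Tumour (3 libraries) and DEN LKO nontumour liver (3) came from mice labelled as lacking Ftcd in liver (LKO) that had been injected intraperitoneally with the carcinogen diethylnitrosamine (DEN, 20 mg/kg) on postnatal day 14. DEN WT nontumour liver (6) came from injected wild-type littermates, and no tumour of a WT mouse was analysed here. Injected mice were harvested 12 months after the injection. Untreated LKO (3) and untreated WT (3) livers were taken at 12 months of age. Ftcd encodes formiminotransferase cyclodeaminase, which carries histidine-derived units into the folate pool. The sources used here do not give the Cre driver of the deletion, nor whether a tumour and a nontumour library share an animal. The labels do not say that replicates are separate animals, so p-values measure the spread between these libraries, which may be technical.

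Several features of the libraries cross these groups. Ftcd was at 0.1 to 3.16 TPM in the 9 libraries labelled LKO and at 61.2 to 106 TPM in 6 of the 9 labelled WT. In the other 3 libraries labelled WT (DEN WT 1 and 2 and untreated WT 3) it was at 1.77 to 2.5 TPM, within the LKO range, and the fold changes described against WT groups are also given without them. Levels of Xist and Y-linked genes marked all 9 WT libraries, tumour 1 and DEN LKO nontumour 1 as XX, and the 3 untreated LKO libraries and numbers 2 and 3 of both DEN LKO groups as XY. Only the DEN LKO groups held both kinds. A model term for XX or XY is therefore set by tumour 1 and DEN LKO nontumour 1, and cannot tell sex from these single libraries. Mitochondrial transcripts took 10.5% to 31.4% of TPM in tumour, 17.9% to 36.9% in DEN LKO nontumour, 4.39% to 38.8% in DEN WT, 17.9% to 30.9% in untreated LKO and 4.24% to 23.2% in untreated WT libraries. The 10 hepatocyte markers summed to 36556 TPM or more in every library, so all were liver by this measure.

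The markers were sparse in untreated liver and detected in larger numbers after DEN. Tumours had 3, 7 and 8 of the 10 markers at 1 TPM or more, DEN LKO nontumour livers 3, 7 and 6, and DEN WT livers 3, 3, 6, 5, 4 and 7. Untreated LKO livers had 1 each, and untreated WT livers 2, 1 and 2. No untreated library reached the count of any DEN library, although tumour 1, DEN LKO nontumour 1 and DEN WT 1 and 2 held only 3. Of all genes in the table, 10509 to 12724 reached 1 TPM in tumours and 10202 to 11959 in DEN LKO nontumour livers. In DEN WT livers 9882 to 11910 did, in untreated LKO 9882 to 10400 and in untreated WT 10427 to 11127. The part of this in the marker counts was not tested. The marker with the highest level was Ly6d in all 3 tumours and Prom1 in all 3 untreated WT livers.

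**Figure D1:**
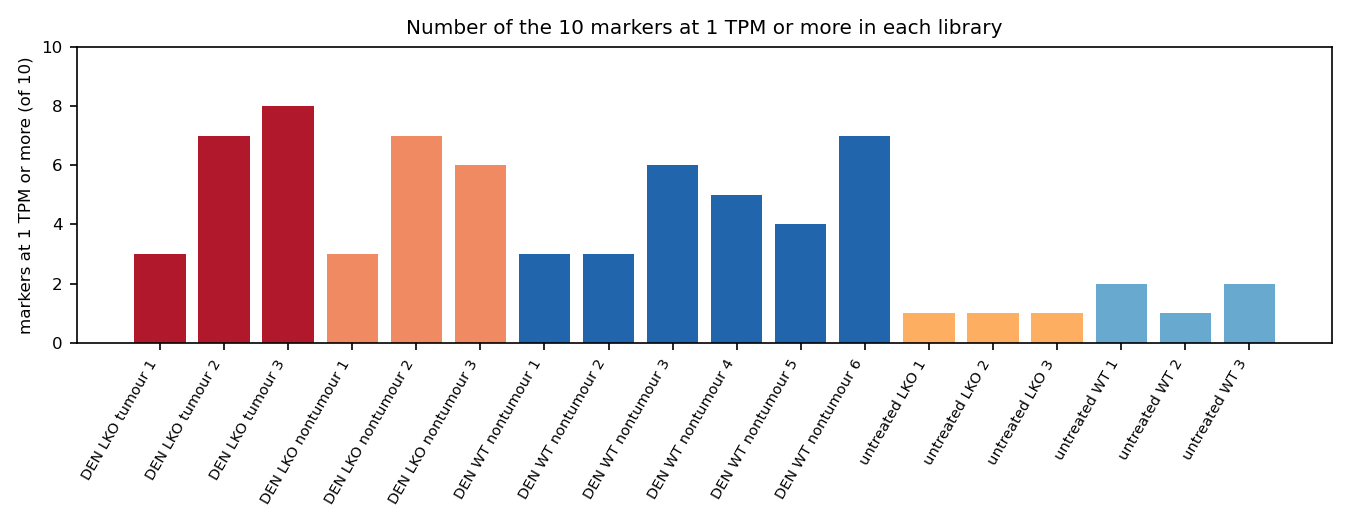
Bars give the number of the 10 oncofetal markers at 1 TPM or more in each of the 18 libraries (y axis), by group along the x axis. Every DEN library holds 3 to 8 markers and every untreated library 1 or 2. Over the whole table, 9882 to 12724 genes reached 1 TPM in a library.

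**Figure D2:**
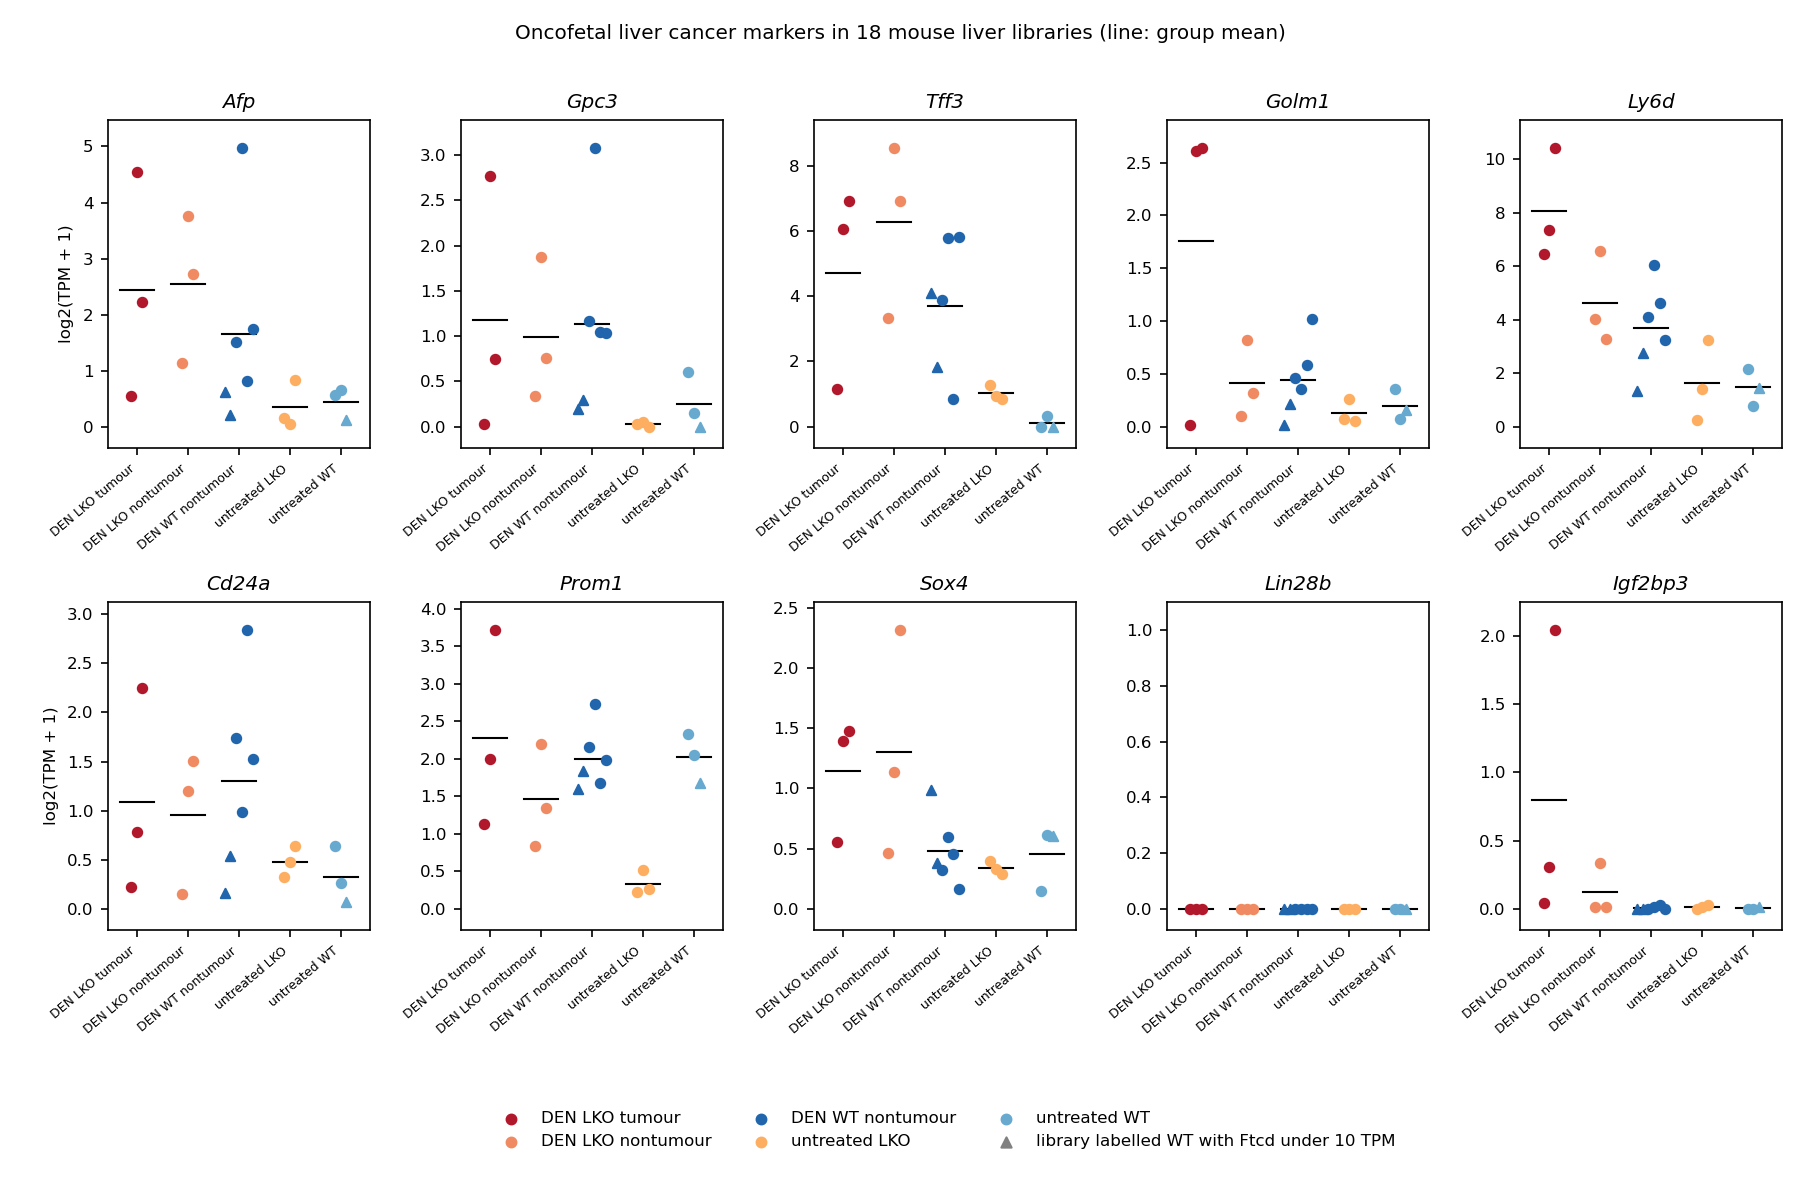
Each point is 1 library, on a log2(TPM + 1) axis that differs between genes, and black lines are group means. Triangles are libraries labelled WT with Ftcd under 10 TPM. Ly6d separates tumour from DEN WT liver, while Afp, Gpc3 and Tff3 overlap between tumour and both DEN nontumour groups.

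Alpha-fetoprotein (Afp) is a major plasma protein of the fetus and the classical serum marker of liver cancer. The gene (ENSMUSG00000054932) lies on the plus strand at chr5:90490737-90508907 (mm10). It was at 0.46, 22.4 and 3.70 TPM in tumours 1 to 3. DEN LKO nontumour livers had 1.19, 12.6 and 5.65 TPM. DEN WT livers ranged from 0.16 to 30.4 TPM with a median of 1.32. All 6 untreated libraries were under 1 TPM, with 0.11, 0.04 and 0.78 TPM in LKO and 0.48, 0.58 and 0.09 TPM in WT. The highest value of the series was thus in a nontumour liver, DEN WT 4, and tumour 1 lay within the untreated range. Tumour did not differ from DEN LKO nontumour liver beyond the spread (log2 fold change -0.10 ± 1.04 (SE), limma, adjusted p = 0.989). That small difference turned positive when tumour 1, tumour 3 or DEN LKO nontumour 2 was left out (0.85, 0.004 and 0.51).

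Glypican-3 (Gpc3) is a heparan sulphate proteoglycan held on the cell surface, abundant in fetal liver and used as a tissue marker of hepatocellular carcinoma. The gene (ENSMUSG00000055653) lies on the minus strand at chrX:52272426-52613950. Tumours had 0.02, 5.79 and 0.68 TPM and DEN LKO nontumour livers 0.27, 2.65 and 0.69 TPM. DEN WT livers ranged from 0.15 to 7.44 TPM with a median of 1.06. In untreated liver Gpc3 was at 0.02, 0.04 and 0 TPM in LKO and at 0.52, 0.11 and 0 TPM in WT. As with Afp, the highest library was DEN WT 4 and the next was tumour 2. The difference between tumour and DEN LKO nontumour liver was 0.19 ± 0.67 on the log2 scale (adjusted p = 0.967), and it was -0.18 when 0.1 in place of 1 TPM was added before taking logs.

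Afp and Gpc3 varied together over the 18 libraries. Pearson's r of log2(TPM + 1) was 0.93 (permutation p = 1e-05, the smallest the resampling can give) and Spearman's rho was 0.811 (permutation p = 8e-05). Adjusted over the 28 pairs of tested markers, these p-values were 0.00028 and 0.00154. Without the 2 libraries farthest from the median of Afp, r was 0.819. Without the 3 low-Ftcd libraries r was 0.925 and rho 0.803. After subtracting each group's mean r was 0.954. Within the 6 DEN WT livers r was 0.972 and rho 0.771, with DEN WT 4 far above the others in both genes. In the untreated LKO livers, all under 1 TPM in both genes, the order was reversed. All 28 pairs of markers had a positive r, and 16 of them passed at an adjusted permutation p under 0.05. Their median r was 0.52. Over all pairs of the 13872 tested genes 66.5% had a positive r, the median was 0.25 and 0.36% reached that of Afp and Gpc3. The share of those pairs that would pass was not computed. Afp, Gpc3, Golm1, Cd24a and Sox4 reached 1 TPM in DEN libraries only, and so passed the filter through them. The count of positive pairs, the 16 that passed and the median r are therefore no support for a trait of the markers. The promoters of Afp and Gpc3 are shown because these genes moved together. RefSeq (GRCm38.p6) gives the 250 bases before the start of Afp as chr5:90490464-90490713 on the plus strand and those of Gpc3 as chrX:52613975-52614224 on the minus strand, written 5′ to 3′ with motif matches in capitals:
Afp: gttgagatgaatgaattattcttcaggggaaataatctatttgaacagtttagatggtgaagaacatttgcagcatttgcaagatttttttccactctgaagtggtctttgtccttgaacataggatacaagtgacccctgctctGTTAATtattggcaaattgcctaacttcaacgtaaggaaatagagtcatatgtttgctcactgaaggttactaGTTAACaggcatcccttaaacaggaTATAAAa
Gpc3: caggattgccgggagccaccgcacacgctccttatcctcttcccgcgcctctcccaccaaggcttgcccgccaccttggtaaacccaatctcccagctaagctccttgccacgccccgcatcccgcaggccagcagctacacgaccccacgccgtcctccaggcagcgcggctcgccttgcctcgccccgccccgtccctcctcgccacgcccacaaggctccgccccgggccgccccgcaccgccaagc
The letters searched on both strands were TATAAA for the core promoter box, then GTTAAT as well as GTTAAC for parts of the HNF1 site, then TGTTTAC for FOXA factors, and finally CTTTGAA for TCF/LEF factors. No match in these windows overlapped another. Counted from the RefSeq start that ends the window, Afp held TATAAA with its first base at -7, GTTAAT at -105 and GTTAAC at -32. The GENCODE start given with the gene above lies 23 bases further downstream for Afp and 24 for Gpc3, and from it these matches were at -30, -128 and -55. The Gpc3 window held none of the 5. Among all 32851 mouse promoter windows of this length, 12.4% held TATAAA, 6.43% held GTTAAT, 2.56% held GTTAAC, 3.17% held TGTTTAC and 4.46% held CTTTGAA. Afp's window was 36.0% G and C, and Gpc3's was 71.6%. Windows were at hand for 7 of the 10 markers, and no match says only that these letters are not in that window.

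**Figure D3:**
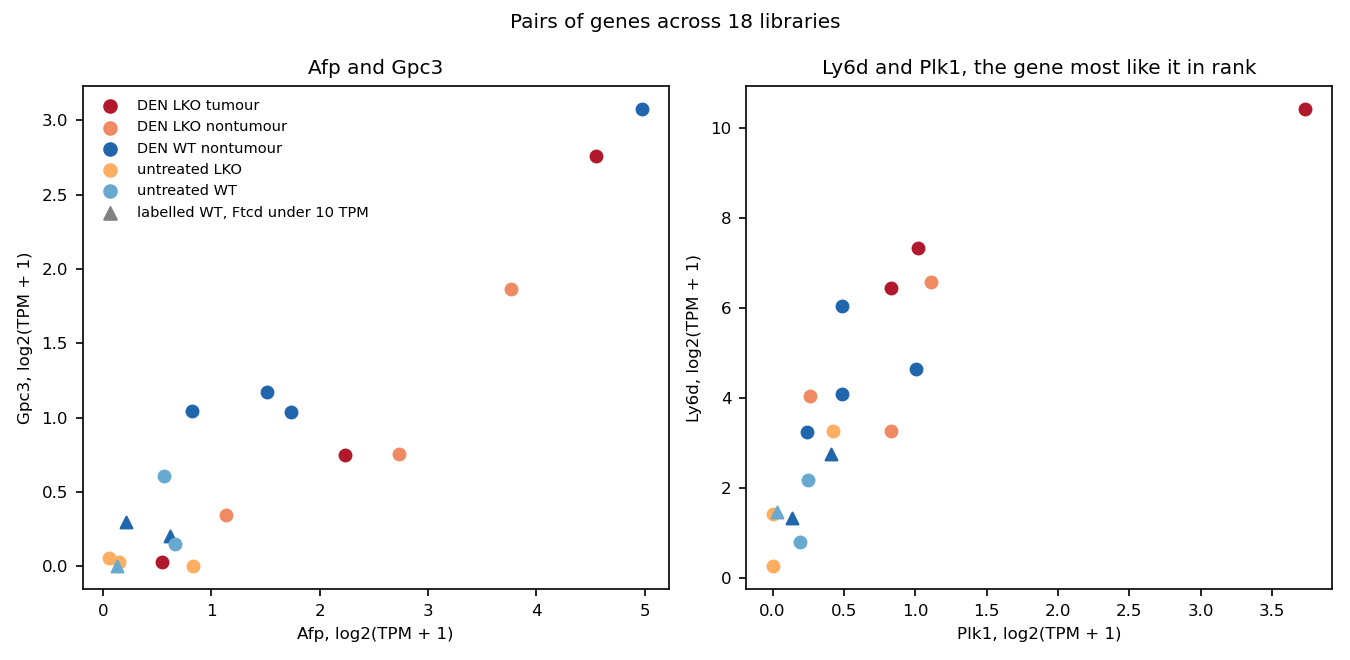
Each point is 1 library, with log2(TPM + 1) on both axes: Afp against Gpc3 on the left, and the cell division gene Plk1 against Ly6d on the right. In both panels libraries with more of 1 gene tend to have more of the other over the whole set, though not within the untreated LKO group on the left, and tumour 3 stands far out for Ly6d and Plk1.

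Trefoil factor 3 (Tff3), a small secreted peptide of mucous epithelia, had the widest range across DEN nontumour livers. The gene (ENSMUSG00000024029) lies at chr17:31125306-31129646 on the minus strand. Tumours had 1.24, 65.4 and 120 TPM, and DEN LKO nontumour livers 9.06, 371 and 119 TPM. DEN WT livers ranged from 0.79 to 55.1 TPM with a median of 14.9. Untreated LKO livers had 1.44, 0.94 and 0.80 TPM, and untreated WT livers had 0, 0.25 and 0 TPM. Every DEN WT library was above every untreated WT library, and every DEN LKO nontumour library was above every untreated LKO library.

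Golgi membrane protein 1 (Golm1, also called GP73) is a resident of the Golgi whose shed form is measured in the blood of liver patients. It (ENSMUSG00000021556, chr13:59634626-59675811, minus strand) was at 0.01, 5.12 and 5.23 TPM in tumours. DEN LKO nontumour livers had 0.07, 0.77 and 0.25 TPM, and DEN WT livers 0.01 to 1.03 TPM with a median of 0.33. Without DEN it was at 0.05, 0.20 and 0.04 TPM in LKO livers and at 0.28, 0.05 and 0.12 TPM in WT livers. Tumours 2 and 3 exceeded all other libraries of the series, and tumour 1 shared the lowest value with DEN WT 1. Only tumours 2 and 3 and DEN WT 6 reached 1 TPM, so Golm1 was tested through these libraries alone.

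Ly6d encodes a small GPI-anchored surface protein of the Ly6 family, best known from early B-lineage cells and squamous epithelium. The gene (ENSMUSG00000034634) lies at chr15:74762056-74763620 on the minus strand. Its levels were 86.3, 161 and 1377 TPM in tumours and 15.5, 94.0 and 8.66 TPM in DEN LKO nontumour livers. DEN WT livers ranged from 1.52 to 64.7 TPM with a median of 12.3. Untreated LKO livers had 0.20, 1.68 and 8.59 TPM and untreated WT livers 3.51, 0.73 and 1.76 TPM. All 3 tumours lay above every DEN WT and every untreated library, and DEN LKO nontumour 2 lay above tumour 1. The summed level of 7 B-cell markers was 2.27 to 5.04 TPM in tumours, 3.71 to 12.0 TPM in DEN LKO nontumour, 2.90 to 64.6 TPM in DEN WT, 0.76 to 1.89 TPM in untreated LKO and 1.68 to 4.33 TPM in untreated WT livers. The part of B cells in the Ly6d levels was not tested.

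Cd24a encodes a heavily glycosylated GPI-anchored protein of progenitor cells and developing B cells. The gene (ENSMUSG00000047139) lies at chr10:43578284-43584265 on the plus strand. Tumours had 0.17, 0.72 and 3.76 TPM, DEN LKO nontumour livers 0.11, 1.30 and 1.85 TPM, and DEN WT livers 0.12 to 6.16 TPM with a median of 1.43. In untreated mice it was at 0.25, 0.39 and 0.56 TPM in LKO livers and at 0.56, 0.20 and 0.05 TPM in WT livers. The highest value was in DEN WT 5, which also held the highest summed level of B-cell markers (64.6 TPM), and their part in it was not tested. Across the 18 libraries the rank of Cd24a ran against that of the mitochondrial share (rho = -0.682, permutation p = 0.00245, adjusted over 8 markers 0.0196), and so did Golm1 (-0.575, adjusted permutation p = 0.0384) and Prom1 (-0.635, adjusted permutation p = 0.0238). Pearson's r did not pass for any of the 8 markers (for Cd24a r = -0.578, adjusted permutation p = 0.0844, and -0.643 without the 2 libraries farthest from the median share). Without the low-Ftcd libraries rho was -0.642 for Cd24a, -0.508 for Golm1 and -0.636 for Prom1. The same relation was not computed over all tested genes. TPM has a fixed total, which a larger mitochondrial share leaves less of for other genes. These values therefore do not show a trait of the markers.

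Prom1 (prominin 1, CD133) is a membrane protein of protrusions that marks progenitor and bile duct cells. The gene (ENSMUSG00000029086) lies at chr5:43993620-44102032 on the minus strand. It was at 1.19, 2.99 and 12.1 TPM in tumours, at 0.79, 3.57 and 1.55 TPM in DEN LKO nontumour livers and at 2.02 to 5.64 TPM in DEN WT livers, with a median of 2.77. Untreated LKO livers had 0.17, 0.43 and 0.20 TPM, and untreated WT livers had 4.04, 3.15 and 2.19 TPM. Untreated WT liver was not low in Prom1: its 3 values lay within the DEN WT range, and all 3 untreated LKO values lay below those of every other library.

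Sox4, a SoxC transcription factor of progenitor cells, is a single-exon gene (ENSMUSG00000076431) at chr13:28948919-28953713 on the minus strand. Its levels were 0.47, 1.63 and 1.78 TPM in tumours and 0.38, 1.20 and 3.98 TPM in DEN LKO nontumour livers. DEN WT livers had 0.12 to 0.98 TPM with a median of 0.34. Untreated LKO livers had 0.32, 0.26 and 0.22 TPM, and untreated WT livers 0.11, 0.53 and 0.52 TPM. Only numbers 2 and 3 of the 2 DEN LKO groups, all XY, reached 1 TPM.

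The fetal RNA-binding proteins were at or near 0. Lin28b, which blocks maturation of let-7 microRNAs (ENSMUSG00000063804, chr10:45376620-45486395, minus strand), was listed at 0 in all 18 libraries. Igf2bp3, which binds and protects messenger RNAs of growth genes (ENSMUSG00000029814, chr6:49085223-49214957, minus strand), had 0.03, 0.24 and 3.12 TPM in tumours. DEN LKO nontumour livers had 0.01, 0.26 and 0.01 TPM, DEN WT livers 0 to 0.02 TPM, untreated LKO livers 0 to 0.02 TPM and untreated WT livers 0 to 0.01 TPM. Tumour 3 was therefore the single library above 1 TPM. The relatives Lin28a and Igf2bp1 did not exceed 0.01 TPM in any library, and Igf2bp2 was at 0.03 to 1.23 TPM.

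Tumour was first set against DEN LKO nontumour liver, the same genotype label and exposure. No gene passed limma at an adjusted p under 0.05, 0.0% of the 13872 tested, and 380 (2.74%) had an unadjusted p under 0.05. Of the 8 tested markers 0 passed, and 2 were higher at an unadjusted p under 0.05, as were 1.38% of all genes. Ly6d was 3.44 ± 1.16 (SE) higher on the log2 scale (limma, adjusted p = 0.943) and Golm1 1.34 ± 0.50 higher (adjusted p = 0.943). Without tumour 3 the fold change of Ly6d was 2.27. In 5 of 8 tested markers the fold change was above 0, against 69.0% of all genes, and the median was 0.16 against 0.23 over all genes. The fold changes of Tff3, Prom1 and Sox4 were -1.55 ± 1.45, 0.82 ± 0.52 and -0.16 ± 0.39. For Prom1 it was 0.10 without tumour 3, 0.51 without DEN LKO nontumour 1 and 1.40 without tumour 1. Cd24a was at 0.13 ± 0.59, which became -0.07 when libraries were rescaled by the median of their gene ratios. Tumour 1 decided the value for Golm1: without it the fold change was 2.21 with an adjusted p of 0.014 (limma), and 21 genes passed. Golm1 passed the filter through tumours 2 and 3 and DEN WT 6 alone. Neither its unadjusted p nor its value without tumour 1 is therefore support for a rise.

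Against DEN WT nontumour liver, 69 genes passed (0.497% of those tested, 0.26% in the higher direction) and 0 of the 8 tested markers did, with 2 higher at an unadjusted p under 0.05 (6.24% of all genes). The count was 485 without tumour 1, 28 and 33 without tumours 2 and 3, 183 without DEN WT 1, 27 without DEN WT 3, 37 and 30 without DEN WT 5 and 6, and 420 with the low-Ftcd libraries left out. Ly6d came nearest. It averaged 541 ± 724 TPM in tumours and 20.1 ± 23.3 TPM in DEN WT livers (SD, n = 3 and 6), a log2 fold change of 4.39 ± 1.00 (SE, limma, adjusted p = 0.0595). Of the 8 tested markers 1, Ly6d, did not overlap between the groups, as for 2.05% of tested genes in that direction. Igf2bp3, outside the tested genes, was at 0.03 TPM or more in tumours and 0.02 TPM or less in DEN WT livers. The exact permutation p of Ly6d was 0.0238 (2-sided, unadjusted), the smallest that 3 against 6 libraries allow. Ly6d passed after median-ratio scaling (4.43, adjusted p = 0.0196), with the mitochondrial share as a covariate (5.26, adjusted p = 0.0235), without tumour 1 (5.20, adjusted p = 0.0144) and without DEN WT 4 (4.86, adjusted p = 0.0356). It passed in none of the other alternatives. Its fold change was 3.21 without tumour 3, the library at 1377 TPM. Without the 3 libraries labelled WT that had low Ftcd it was 3.57 (adjusted p = 0.0678). Golm1 was 1.31 ± 0.43 higher (adjusted p = 0.21), and 1.15 without those 3 libraries (adjusted p = 0.219). It passed limma without tumour 1 (2.18, adjusted p = 0.000732). Golm1 passed the filter through tumours 2 and 3 and DEN WT 6 alone, so neither its unadjusted p nor this pass is separate support. With an XX or XY term Golm1 was 0.28 (adjusted p = 0.717) and Ly6d 3.28 (adjusted p = 0.535). That term is set by tumour 1 and DEN LKO nontumour 1, so these values are not a correction for sex alone. The median over the tested markers was 0.73, against 0.04 over all genes. Of 10 hepatocyte markers the tyrosine-degrading enzyme gene Hpd fell (-2.24, adjusted p = 0.0452) and the median was -1.40. The Hpd call ended without tumour 2 or 3 and without any of DEN WT 2 to 6 (adjusted p = 0.0518 to 0.278), and it was -2.36 (adjusted p = 0.0286) without the low-Ftcd libraries. The part of this in the oncofetal levels was not tested.

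Tumour was also set against untreated LKO liver, a comparison added after the values were seen, and there Ly6d rose. Its level was 541 ± 724 TPM in tumours, against 3.49 ± 4.48 TPM in untreated LKO livers (SD, n = 3 each), a log2 fold change of 6.42 ± 1.16 (SE, adjusted p = 0.0149 by limma). It was 1 of 101 genes called (0.728%, 0.396% in the higher direction) and the sole marker among them. The count of genes was 788 without tumour 1 and 9 to 48 without any other single library of the 2 groups. In the same direction 4 markers had an unadjusted p under 0.05 (9.29% of all genes), and 3 of the 8 tested (Ly6d, Prom1 and Sox4) did not overlap between the groups (8.45% of tested genes). The call ended in a fit of the compared groups alone (adjusted p = 0.237), without tumour 3 (5.25, adjusted p = 0.0948), without untreated LKO 1 (5.73, adjusted p = 0.0939) and without untreated LKO 2 (6.31, adjusted p = 0.0766). The exact permutation p was 0.1, the smallest that 3 against 3 libraries allow. Prom1 was 1.95 ± 0.52 higher (adjusted p = 0.116), Golm1 1.63 ± 0.50 (adjusted p = 0.18) and Tff3 3.68 ± 1.45 (adjusted p = 0.326). All 3 of these passed limma without tumour 1 (2.52, 2.50 and 5.45, adjusted p = 0.00675, 0.00053 and 0.0252). They also passed with a term for XX or XY libraries (2.39, 2.14 and 5.30, adjusted p = 0.0043, 0.00315 and 0.00633). That term is set by tumour 1 and DEN LKO nontumour 1, so it is not separate from leaving out tumour 1. Prom1 also passed at a pseudocount of 0.1 TPM (3.38, adjusted p = 0.0294) and after median-ratio scaling (1.67, adjusted p = 0.0427), and Sox4 passed with the XX or XY term (1.16, adjusted p = 0.041). All 8 tested markers had a fold change above 0, as had 76.6% of all genes, and the median was 1.79 against 0.35 over all genes. Afp, Gpc3, Golm1, Cd24a and Sox4 passed the filter through DEN libraries only, so the count above 0 and the median are no support for a rise. Nor are the unadjusted p and passing alternatives of Golm1, or the lack of overlap and passing alternative of Sox4. In bulk tissue, more cells of a type and more RNA per cell cannot be told apart.

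**Figure D4:**
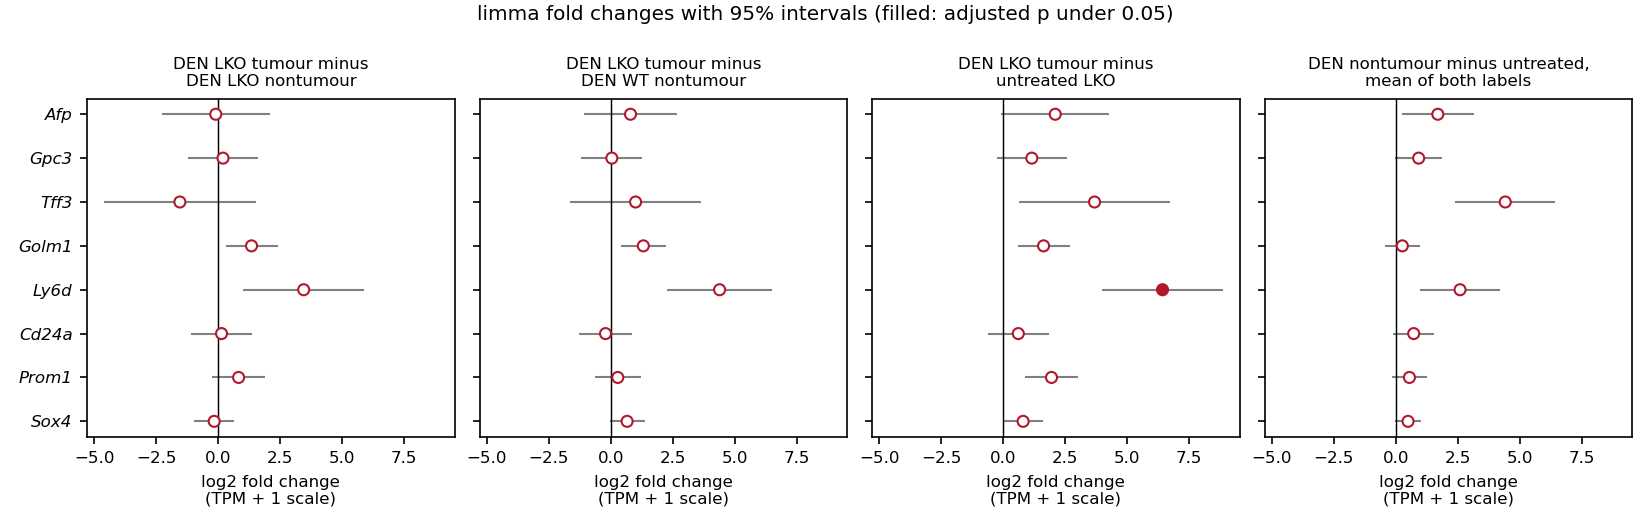
Points are limma log2 fold changes of the 8 tested markers on the TPM + 1 scale, with 95% intervals, in 4 comparisons, and a filled point passed at an adjusted p under 0.05. Only Ly6d in tumour against untreated LKO liver is filled, and its interval and that of Golm1 lie above 0 in all 3 tumour panels. Golm1 passed the filter through tumours 2 and 3 and DEN WT 6 alone.

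The genotype label was compared within nontumour liver. After DEN, 8 genes passed between LKO and WT livers (0.0577%), 0 of them markers, and 1 marker, Sox4, was higher at an unadjusted p under 0.05 (6.56% of all genes). Sox4 reached 1 TPM only in tumour and DEN LKO nontumour libraries, and so passed the filter through them. Its unadjusted p is therefore no support for a rise. The count of genes that passed was 202 without DEN WT 1, and 1159 without both low-Ftcd DEN WT libraries and untreated WT 3. Sox4 averaged 1.85 ± 1.89 TPM in DEN LKO nontumour and 0.42 ± 0.30 TPM in DEN WT livers (SD, n = 3 and 6), a fold change of 0.82 ± 0.34 (log2, adjusted p = 0.352), and 0.92 without the low-Ftcd WT libraries (adjusted p = 0.107). Without DEN LKO nontumour 3 it was 0.32, without DEN LKO nontumour 1 it was 1.24, at a pseudocount of 0.1 TPM it was 1.57, and with an XX or XY term it was 0.11. That term is set by tumour 1 and DEN LKO nontumour 1. In untreated liver 60 genes passed (0.433%), again with 0 markers, and Prom1 was lower at an unadjusted p under 0.05 (2.7% of all genes). It averaged 0.27 ± 0.14 TPM in LKO and 3.13 ± 0.93 TPM in WT livers (SD, n = 3 each). Its groups did not overlap, as for 8.97% of tested genes in the lower direction. The fold change was -1.69 ± 0.52 (SE, limma, adjusted p = 0.404), and -1.86 without untreated WT 3, which had low Ftcd (adjusted p = 0.387). The untreated LKO libraries were XY and the untreated WT libraries XX, so genotype and sex cannot be told apart here. Tff3, too, was higher in every untreated LKO than in every untreated WT library (2.45% of tested genes in that direction), at levels of 1.44 TPM or less. The interaction of genotype label and DEN passed limma for 0 genes, with 332 at an unadjusted p under 0.05, and for the 8 markers the unadjusted p was 0.0843 (Sox4) or higher in the same limma fit.

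DEN history was compared within each genotype label. In LKO mice 6 of the 8 tested markers (Afp, Gpc3, Tff3, Ly6d, Prom1 and Sox4) were higher in every DEN nontumour than in every untreated library, against 9.86% of tested genes. Of these, Afp, Gpc3 and Sox4 reached 1 TPM in DEN libraries only, and so passed the filter through them. For these genes the lack of overlap is no separate support. By limma 9 genes passed (0.0649%) and 0 of them were markers, while 5 were higher at an unadjusted p under 0.05 (5.05% of all genes). Afp and Sox4 are among these 5, and for them this p is no separate support either. The fold changes were 5.23 ± 1.45 for Tff3 (adjusted p = 0.361), 2.98 ± 1.16 for Ly6d (0.684), 2.20 ± 1.04 for Afp (0.83), 1.13 ± 0.52 for Prom1 (0.797) and 0.97 ± 0.39 for Sox4 (0.70). With an XX or XY term, which is set by tumour 1 and DEN LKO nontumour 1, Tff3 passed limma (6.85, adjusted p = 0.00718). In WT mice 0 genes passed limma (0.0%), with 95 (0.685%) at an unadjusted p under 0.05. These held 2 markers, Tff3 and Ly6d, both higher (0.411% of all genes). Tff3 alone among the markers did not overlap between DEN WT and untreated WT livers, as for 0.49% of tested genes in that direction. It averaged 23.8 ± 24.7 TPM in DEN WT and 0.08 ± 0.14 TPM in untreated WT livers (SD, n = 6 and 3), a fold change of 3.60 ± 1.26 (adjusted p = 1.0, exact permutation p = 0.0238 unadjusted). That permutation p is the smallest that 6 against 3 libraries allow. Without the low-Ftcd libraries the fold change of Tff3 was 3.92. Ly6d was 2.21 ± 1.00 higher (adjusted p = 1.0), and 3.02 without them.

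Both labels were then joined, in a comparison added after the values were seen. The mean of the 2 DEN nontumour groups was set against the mean of the 2 untreated groups, and 0 genes passed limma (0.0%), with 653 (4.71%) at an unadjusted p under 0.05. Among them were 3 markers, all higher (4.14% of all genes). All 8 tested markers had a fold change above 0, as had 60.5% of all genes, with a median of 0.82 against 0.07. Afp, Gpc3, Golm1, Cd24a and Sox4 reached 1 TPM in DEN libraries only, and so passed the filter through them. The count above 0, the median and the place of Afp among the 3 are therefore no support for a rise. Tff3 was highest at 4.42 ± 0.96 (adjusted p = 0.406). Between the 9 DEN nontumour and 6 untreated libraries its exact permutation p was 0.0016, unadjusted, and DEN WT 5 lay below all 3 untreated LKO libraries. Ly6d was 2.59 ± 0.76 higher (adjusted p = 0.683), Afp 1.70 ± 0.69 (0.931), Gpc3 0.92 ± 0.45 (1.0), Cd24a 0.72 ± 0.39 (1.0), Prom1 0.55 ± 0.34 (1.0), Sox4 0.50 ± 0.26 (1.0) and Golm1 0.27 ± 0.33 (1.0). With an XX or XY term, again set by tumour 1 and DEN LKO nontumour 1, Tff3 passed limma (5.23, adjusted p = 0.00301). Without the 3 low-Ftcd libraries Tff3 was 4.58 (adjusted p = 0.716), Ly6d 3.0, Afp 1.92, Gpc3 1.08, Cd24a 0.90, Prom1 0.54, Sox4 0.48 and Golm1 0.34 (adjusted p = 1.0 each). Untreated LKO livers enter this comparison, the tumour comparison above and the LKO comparison, which therefore are not independent.

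Markers of other liver cells differed in level between libraries. The summed level of 11 bile duct markers was 8.46 to 85.4 TPM in tumours, 17.1 to 189 TPM in DEN LKO nontumour, 7.55 to 70.9 TPM in DEN WT, 8.40 to 61.5 TPM in untreated LKO and 18.0 to 30.9 TPM in untreated WT livers. Spp1 alone made up 58.5% to 90.0% of this sum, and the other 10 markers summed to 2.23 to 22.7 TPM over the 18 libraries. Of the 11, 7 were tested and 0 passed limma in any of the 8 comparisons, with at most 1 at an unadjusted p under 0.05. Sctr was at 0 in all untreated LKO and Cftr in all untreated WT livers. The highest 2 sums (132 and 189 TPM) were in DEN LKO nontumour 2 and 3, the library with the highest Tff3 and the library with the highest Sox4 of the series, and without Spp1 these 2 sums were 18.0 and 22.7 TPM, against 18.6 TPM in tumour 3. Their part in these levels was not tested. The 7 macrophage markers summed to 30.9 to 178 TPM in tumours, 86.5 to 230 TPM in DEN LKO nontumour, 72.2 to 248.6 TPM in DEN WT, 26.4 to 50.7 TPM in untreated LKO and 50.5 to 128 TPM in untreated WT livers. In both DEN nontumour groups against both untreated groups 0 of the 7 passed limma. All 7 were higher at an unadjusted p under 0.05 (4.14% of all genes), and their median was 1.11, against 0.07 over all genes. Their part in the marker levels after DEN was not tested. Untreated LKO 3 had a bile duct sum of 61.5 TPM (6.14 TPM without Spp1) with 0.80 TPM of Tff3 and 0.20 TPM of Prom1.

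Relatives of the markers and genes of their pathways had no calls. Albumin (Alb), the adult member of the Afp family, ranged from 6758 to 59439 TPM over the libraries. Alb and its relatives Afm and Gc had 0 calls by limma in 8 comparisons, with 1 unadjusted p under 0.05. Among glypicans Gpc4 was at 1.96 to 25.6 TPM, while Gpc2 and Gpc5 stayed under 0.2 TPM. In the trefoil family Tff1 was listed at 0 throughout and Tff2 reached 3.02 TPM. Of 13 Ly6 relatives 4 were tested with 0 calls. At most 2 had an unadjusted p under 0.05, both higher in tumour against untreated LKO liver (9.29% of all genes). Ly6e was at 46.5 to 949 TPM. The 13 known or proposed regulators of Afp, among them its postnatal repressors Zhx2 (0.16 to 5.12 TPM) and Zbtb20 (1.02 to 9.51 TPM), had 0 calls by limma in 8 comparisons and 1 unadjusted p under 0.05. The 14 tested progenitor genes, the 16 tested genes of other liver tumour markers and the 7 tested genes of the Lin28 and Igf2bp axis had 0 calls too, with at most 4, 6 and 3 genes at an unadjusted p under 0.05 in a comparison. The 4 and the 6 were in tumour against untreated LKO liver, all higher, as were 9.29% of all genes. The third list had 2 higher and 1 lower there. Medians of these 3 lists in that comparison were 0.59, 1.65 and 0.83, against 0.35 over all genes. How far these genes passed the filter through DEN libraries was not examined. In tumour against DEN WT liver the medians were 0.11, 0.51 and 0.09, against 0.04 over all genes. The imprinted fetal growth genes H19 and Igf2, named here after their values were seen, did not pass limma either. H19 was at 0.68 to 85.1 TPM in DEN nontumour and 0.10 to 0.50 TPM in untreated livers (3.39 ± 0.90, adjusted p = 0.594, and 3.62 without the low-Ftcd libraries). Igf2 was at 0.38 to 76.4 TPM in DEN nontumour and 0.12 to 0.91 TPM in untreated livers (2.57 ± 0.84, adjusted p = 0.769, and 2.99 without the low-Ftcd libraries).

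Some cell division genes rose in tumours. Of 22 genes, 17 were tested. Against DEN WT liver 3 rose and 0 fell: Ube2c, an anaphase ubiquitin conjugase (2.39 ± 0.46, adjusted p = 0.0219), the anaphase activator Cdc20 (2.02 ± 0.44, adjusted p = 0.0463) and the survivin gene Birc5 (1.71 ± 0.37, adjusted p = 0.0463). Against untreated LKO liver the same 3 and the cyclin gene Ccnb2 rose, by 2.12 to 2.77, and 0 fell. Of all tested genes, 0.26% were called higher against DEN WT and 0.396% against untreated LKO liver. These counts of 3 and 4 were 0 without tumour 3 and in a fit of the compared groups alone, and 7 and 9 without tumour 1. The 3 calls against DEN WT liver were also 0 without DEN WT 3, without DEN WT 6, with no filter on low values and with an XX or XY term, 1 at a pseudocount of 0.1 TPM and without DEN WT 2 or 4, and 2 without tumour 2, DEN WT 5 or the low-Ftcd libraries. The 4 calls against untreated LKO liver were 0 without any 1 of its 3 libraries, 2 with no filter and 3 without tumour 2. Against DEN LKO nontumour liver 0 passed limma, and 9 were higher at an unadjusted p under 0.05 (1.38% of all genes). All 17 had a fold change above 0, as had 69.0% of all genes, with a median of 1.13, against 0.23 over all genes.

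The genes closest in pattern to each marker, by Spearman's rho over the 18 libraries among 10197 tested genes with a mean of 1 TPM or more, included 3 mitotic genes for Ly6d. These were the mitotic kinase Plk1 (0.931), Cdca3 (0.930) and Ccnb2 (0.884). Plk1 was at 0.78, 1.03 and 12.3 TPM in tumours, 0.20 to 1.16 TPM in DEN LKO nontumour, 0.10 to 1.01 TPM in DEN WT, 0 to 0.34 TPM in untreated LKO and 0.02 to 0.19 TPM in untreated WT livers. Afp was closest to Arhgap22 (0.919), Cd63 (0.864) and Rragd (0.851), and Gpc3 to Cd207 (0.905), Galnt6 (0.890) and Cd63 (0.887). The tetraspanin gene Cd63, shared by Afp and Gpc3, was at 4.0, 190 and 256 TPM in tumours and 3.30 to 4.28 TPM in untreated LKO livers. Tff3 was closest to B4galt6 (0.895), Scn8a (0.886) and Rgs2 (0.869), Golm1 to Cyb5r1 (0.948), Nid1 (0.943) and Mob3a (0.926), and Cd24a to Rbm3 (0.933), Galns (0.928) and Napsa (0.927). Prom1 was closest to Zbp1 (0.884), Plod3 (0.851) and Ybx3 (0.847), and Sox4 to Rpl21 (0.895), Alkbh1 (0.879) and Gart (0.872). All values share the same libraries and their makeup, and each is the highest of many.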

How the data were processed

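RNA of 18 mouse liver libraries was extracted with TRIzol and prepared with a TruSeq kit, per the labels' protocols. The values are TPM in 1 gene table deposited by the authors, and the tools named per the submitters' processing notes are RSEM, HISAT and fastp, with mm10 as the build and no version in the sources used here. TPM keeps no read depth, so no counting interval was computed and the precision of single values is unknown. Each library summed to 1000000 TPM after rounding, and a few abundant transcripts lower all others.

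Values were taken as log2(TPM + 1), so fold changes of low genes are understated. The 13872 genes that reached 1 TPM in 3 or more libraries were fitted with limma 3.58.1 (R 4.3.3) on 5 group means with an intensity trend, 13 residual degrees of freedom and 2-sided tests. Adjustment was by Benjamini-Hochberg over all tested genes of a comparison, with a call at an adjusted p under 0.05. Exact permutation tests over libraries and correlations used scipy 1.17.1. Identifiers were placed with GENCODE M21 (94.9% matched) and promoters came from RefSeq.

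The markers, gene lists and tests were chosen with earlier results of these data known. After the values were seen, 2 comparisons, the correlations without the low-Ftcd libraries, the sums without Spp1 and the gap ratios on the log2 scale were added. Named were all 10 markers, up to 4 passing genes per other list and comparison, relatives of the markers by their levels, and the 3 genes closest to each marker by Spearman's rho, leaving out predicted, Riken, accession-like and assembled identifiers. Alternatives were another pseudocount, no filter, median-ratio scaling, the compared groups alone, a replicate block, each library left out in turn, the 3 low-Ftcd libraries labelled WT left out, the mitochondrial share and a term for XX against XY.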

Additional observations from a re-analysis of the deposited data

Results flagged for a closer look

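In the 6 DEN WT livers, 4 markers had a single library set apart from the other 5 (gap to the next library over 0.625 of the range, Dixon's 95% limit). Chance flags about 1 in 20 groups of normally spread values, and 9 markers were looked at. On the log2(TPM + 1) scale 2 of the 4 remained past the limit, Afp (0.68) and Gpc3 (0.663), and Ly6d (0.297) and Cd24a (0.413) did not. Afp was at 30.4 TPM, Gpc3 at 7.44 TPM and Ly6d at 64.7 TPM in the same library, DEN WT 4, whose Ftcd level was 66.3 TPM, as labelled. Cd24a was at 6.16 TPM in DEN WT 5, where summed B-cell markers were at 64.6 TPM, against 2.90 to 7.51 TPM in the other DEN WT libraries.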

How the results depend on the processing

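Of 513 alternative values for 31 marker results, 479 kept their direction and their side of the threshold, 16 passed where the reported value did not, 5 ended the Ly6d call and 13 changed sign. All 13 changes of sign were in tumour against DEN LKO nontumour liver: Gpc3 at a pseudocount of 0.1 TPM (-0.18), Cd24a after median-ratio scaling (-0.067) and with the mitochondrial share (-0.10), and, with 1 library left out, Afp (-1.15 to 0.85), Gpc3 (-0.60 to 0.77), Tff3 (-3.01 to 0.23), Cd24a (-0.45 to 0.56) and Sox4 (-0.59 to 0.34). The cause was not tested. Median-ratio scaling moved the median of all genes by -0.22 in that comparison, 0.23 between DEN LKO and DEN WT, 0.33 between untreated LKO and WT, -0.12 between DEN LKO and untreated LKO, and -0.34 between tumour and untreated LKO.

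Counts of called genes depended on the processing. Median-ratio scaling gave 1 (tumour against DEN LKO nontumour, reported 0), 327 (tumour against DEN WT, reported 69), 94 (untreated LKO against WT, 54 higher and 40 lower, reported 24 and 36), 19 (DEN LKO against untreated LKO, 8 and 11, reported 5 and 4), 214 (tumour against untreated LKO, reported 101) and 3 (both DEN groups against both untreated, reported 0). DEN LKO against DEN WT gave 11 (8 and 3, reported 4 and 4). With the 3 low-Ftcd libraries left out, the counts were 1 for tumour against DEN LKO nontumour, 420 for tumour against DEN WT, 1159 for DEN LKO against DEN WT (reported 8) and 1 for both DEN groups. An XX or XY term gave 9, 4, 26, 189, 872 and 99 genes for tumour against DEN WT, DEN LKO against DEN WT, untreated LKO against WT, DEN LKO against untreated LKO, tumour against untreated LKO and both DEN groups. The mitochondrial share gave 161 (tumour against DEN WT), 0 (DEN LKO against DEN WT), 178 (tumour against untreated LKO) and 3 (both DEN groups). The compared groups alone gave 3 for tumour against DEN WT and against untreated LKO, 0 for DEN LKO against DEN WT and 2 for both DEN groups. No filter gave 11 (tumour against DEN LKO nontumour) and 21 (DEN LKO against DEN WT), and a pseudocount of 0.1 TPM gave 2 for DEN LKO against DEN WT and against untreated LKO. With 1 library left out counts ranged from 0 to 21, 27 to 485 and 9 to 788 for tumour against DEN LKO nontumour, DEN WT and untreated LKO. They ranged from 0 to 202 for DEN LKO against DEN WT, 33 to 44 for untreated LKO against WT, 0 to 20 for DEN LKO against untreated LKO, 0 to 0 for DEN WT against untreated WT and 0 to 5 for both DEN groups. The upper ends of both tumour ranges (485 and 788) were without tumour 1. DEN WT against untreated WT gave 0 in every alternative run.

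The labels use the same replicate numbers in several groups and do not say what a number marks. Same-numbered libraries did not all deviate together, so they were not taken as pairs. The correlations were 0.347, 0.301 and -0.034 for tumour and DEN LKO nontumour and 0.608, 0.005 and 0.434 for tumour and DEN WT. They were below 0.1 for at least 1 number in every comparison. Tumour and DEN LKO nontumour libraries of the same number also had the same XX or XY call. Whether these share an animal cannot be told from the correlations. With the replicate number as a block 0 genes passed in tumour against DEN WT, in tumour against untreated LKO and in DEN LKO against DEN WT, 10 in untreated LKO against WT and 3 in DEN LKO against untreated LKO, and Ly6d in tumour against untreated LKO had an adjusted p of 0.116. No block fit was made for both DEN groups against both untreated groups. With 3 libraries in most groups and no counts, fold changes of markers near 1 TPM are imprecise.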
